A study of Mus musculus with 4 samples.

Results

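The E2F transcription factors and the pocket proteins that hold them in check were examined in 4T1, a mouse line of mammary tumor origin and wild-type genotype. The genes were taken by name: *E2f1*, *E2f2*, *E2f3*, *E2f4*, *E2f5*, *E2f7* and *E2f8* of the E2F family, and *Rb1*, *Rbl1* and *Rbl2* of the pocket protein family. All 10 had a row among the 20197 genes of the table. Staining was with MitoSpy Red at 20 nM, a dye that mitochondria take up the more, the higher their membrane potential (MMP). The top 5% of cells by signal (high MMP) were sorted apart from the bottom 5% (low MMP), and 100000 cells a sample gave RNA for 2 high MMP and 2 low MMP libraries. Both groups come from the same stained line with no other treatment, so the sort is the only labelled difference between them.

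E2F proteins bind promoters of genes needed for DNA replication. E2F1, E2F2 and E2F3 switch these genes on as cells pass from G1 into S phase, and they are held inactive by the retinoblastoma protein until cyclin-dependent kinases phosphorylate it. E2F4 and E2F5 act mainly as repressors together with p107 and p130 (the products of *Rbl1* and *Rbl2*) in resting and early G1 cells, whereas the atypical members E2F7 and E2F8 repress without a pocket protein and later in the cycle. Several of these genes, *E2f1* and *E2f2* among them, are themselves transcribed in waves during the cell cycle.

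Because E2F genes can be regulated by E2F proteins, the promoter windows of the members were searched for E2F letters. A window ran from 250 bases before to 50 bases after an annotated start (RefSeq, build GRCm38.p6, whose starts can differ from GENCODE's), and 7 of the 10 genes had at least 1 window. The letters searched on both strands were TTTCCCGC, TTTCGCGC, TTTGCCGC and TTTGGCGC, the spelled-out forms of the E2F consensus. They occurred in 2.26% of all 32851 windows. By gene, at least 1 window held them for 2.6% of all genes with a window and for 4 of the 7 genes, *E2f2*, *E2f3*, *E2f7* and *Rbl1*. These sites are shown because activator, repressor and pocket protein genes all carry one. Each line gives 30 bases in the direction of the gene with the match in capitals.
E2f2 (chr4:136172294-136172323, plus strand, from 40 bases after the start): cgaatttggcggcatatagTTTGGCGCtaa
E2f3 (chr13:29986055-29986084, minus strand, from 11 bases before the start): tgaaaagccgGCGGGAAAtctgagtttcgc
E2f7 (chr10:110745231-110745260, plus strand, from 198 bases before the start): ccgcgtccccGCGGGAAAcgctcccgcgtc
Rbl1 (chr2:157204533-157204562, minus strand, from 18 bases before the start): agaaggcgatTTTCGCGCgctttgtcgcgg
In *E2f3* and *E2f7* the match reads on the opposite strand. The *E2f1* window lay 466 bases inside the gene as GENCODE annotates it, at an internal RefSeq start, so its letters do not describe the promoter at the 5′ end of *E2f1*. The looser 7-letter forms, without the first T, occurred in 9.57% of all windows. The *E2f8* window held no 8-letter match, but it held the 7-letter form TTGGCGC 111 bases before the start, in a stretch shown for comparison.
E2f8 (chr7:48881688-48881717, minus strand): gaggcgcggaTTGGCGCgcggggccccggg

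The libraries held 22591970 to 26395015 reads assigned to genes. Values are normalized reads, the authors' scaling of each library to a total of 20000000, and differences are taken as log2(value + 1) in high minus that in low MMP cells. High MMP 1 stood apart in its mitochondrially encoded coding transcripts, which took 1.27% of reads against 2.02% to 2.24% in the other 3 libraries. The epithelial keratins *Krt8* and *Krt18* were at 13139 or more in each library, while of the other cell type lists *Ptprc*, *Cdh5* and *Col1a2* had 0 to 4 reads. Other members were above this, with the macrophage marker *Cd68* at 79 to 171 reads and *Col1a1* at 8 to 39. Of the epithelial list, *Cdh1* was lower in high MMP cells (3903 and 4726 against 5421 and 5426) and *Krt14* higher (1368 and 1529 against 1226 and 1100), without overlap. The summed fibroblast list was lower in high MMP cells (343 and 405 against 582 and 632), almost all of it *Pdgfra*. The part of these in the results was not tested. The study counts its samples as independent experiments, but the labels do not tie the sample numbers to cultures, so p-values measure only the spread between these libraries.

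Of the 3 activators, *E2f1* and *E2f2* were lower in high MMP cells and *E2f3* was level between the groups. Neither difference passed the limma test adjusted over all genes. No repressor or pocket protein gene passed it either, and the log2 differences of the other 8 genes ran from -0.24 to 0.21. In bulk RNA, fewer cells that express a gene and less RNA per cell cannot be told apart.

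*E2f1* (ENSMUSG00000027490, GRCm38 chromosome 2, 154559407 to 154569892, minus strand), the best known activator, had 764 and 647 normalized reads in high MMP 1 and 2 and 1101 and 1206 in low MMP 1 and 2. Both high MMP libraries were below both low MMP libraries, and the gap between the groups was wider than the gap within either. The means were 705 ± 82.7 and 1153 ± 74.0 (SD, n = 2 each), so high MMP cells held 61.2% of the level in low MMP cells. The log2 difference was -0.71 (SE 0.12, 95% interval -1.04 to -0.39), with an unadjusted limma p of 0.00329 and an adjusted p of 0.472 over all 20197 genes.

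*E2f2* (ENSMUSG00000018983, chromosome 4, 136172394 to 136196057, plus strand), an activator closely related to *E2f1*, had 268 and 274 normalized reads in high MMP cells and 486 and 442 in low MMP cells. The groups did not overlap, and the high MMP libraries were nearly equal. The means were 271 ± 3.83 and 464 ± 31.0 (SD, n = 2 each), or 58.4% of the low MMP level. The log2 difference was -0.77 (SE 0.10, 95% interval -1.04 to -0.50), with an unadjusted limma p of 0.00120 and an adjusted p of 0.472.

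*E2f3* (ENSMUSG00000016477, chromosome 13, 29906575 to 29986063, minus strand), whose gene gives a longer and a shorter protein that gene-level values cannot separate, had 1326 and 1389 normalized reads in high and 1367 and 1441 in low MMP cells. The libraries interleaved, and the log2 difference was -0.05 (SE 0.08, adjusted limma p 0.926). Its 95% interval, -0.26 to 0.17, did not reach the differences of *E2f1* and *E2f2*.

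**Figure D1:**
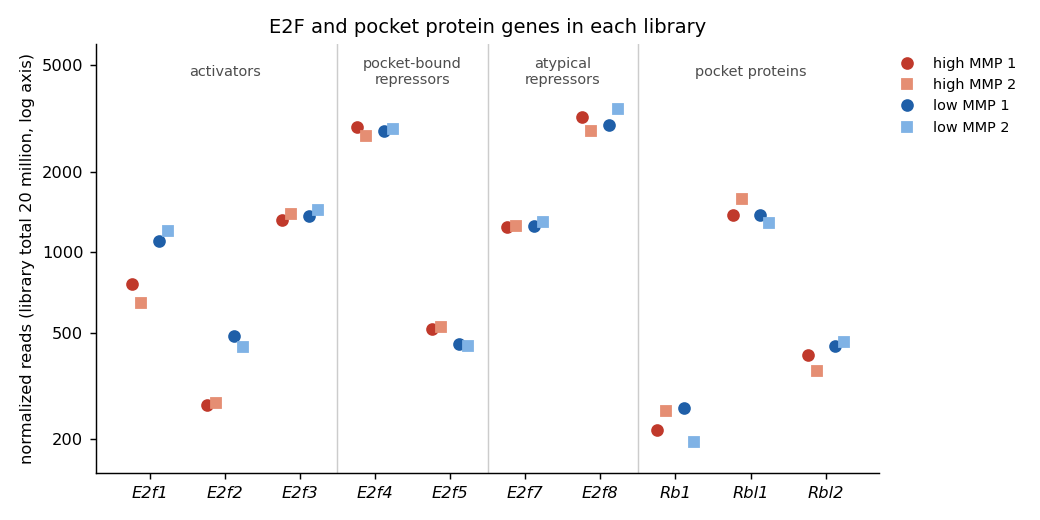
Normalized reads (log axis) of the 10 genes in each library, with high MMP in red, low MMP in blue, circles for replicate 1 and squares for replicate 2. *E2f1* (647 and 764 against 1101 and 1206) and *E2f2* (268 and 274 against 442 and 486) show the widest gaps between the colors, while the points of *E2f3*, *E2f4*, *E2f7*, *E2f8*, *Rb1* and *Rbl1* interleave.

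The calls differed between tools. On whole reads recovered from the table, DESeq2 called *E2f1* (adjusted p 0.0185) and *E2f2* (0.0274) as lower in high MMP cells. It called 0.985% of the 11974 genes to which it gave an adjusted p, 0.309% as lower. edgeR's quasi-likelihood test called neither (adjusted p 0.626 and 0.524) and 0 genes in all, with 1423 genes (7.05%) at an unadjusted p under 0.05. The log2 difference of *E2f1* was -0.53 between the libraries numbered 1 and -0.90 between those numbered 2, and that of *E2f2* was -0.85 and -0.69. With any 1 library left out, *E2f1* ranged from -0.83 to -0.59 and *E2f2* from -0.84 to -0.70.

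Among the pocket-bound repressors, *E2f4* (ENSMUSG00000014859, chromosome 8, 105297663 to 105305370, plus strand), the E2F most often found on promoters of resting cells, had 2932 and 2729 normalized reads in high and 2848 and 2885 in low MMP cells. The high MMP libraries lay on either side of the low MMP libraries. The log2 difference was -0.02 (SE 0.08, 95% interval -0.24 to 0.20, adjusted limma p 0.992), and its sign turned positive under scalings that compare libraries by their typical gene.

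*E2f5* (ENSMUSG00000027552, chromosome 3, 14578641 to 14606309, plus strand), the partner of p130 and p107, was the only E2F gene with all high MMP values above all low MMP values. It had 519 and 524 normalized reads in high and 455 and 447 in low MMP cells, and the replicates of each group lay close together. The log2 difference was 0.21 (SE 0.08, 95% interval -0.01 to 0.43), with an unadjusted limma p of 0.0586 and an adjusted p of 0.526. The gene overlaps *1810022K09Rik* on the opposite strand, and whether the counting used strand is not given in the sources used here.

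The atypical repressors were level. *E2f7* (ENSMUSG00000020185, chromosome 10, 110745439 to 110787384, plus strand) had 1240 and 1253 normalized reads in high and 1252 and 1303 in low MMP cells, a log2 difference of -0.04 (SE 0.07, 95% interval -0.24 to 0.17, adjusted limma p 0.954). *E2f8* (ENSMUSG00000046179, chromosome 7, 48866429 to 48881596, minus strand) had 3202 and 2851 in high and 2990 and 3427 in low MMP cells and differed by -0.08 (SE 0.12, 95% interval -0.40 to 0.23, adjusted limma p 0.902). Both genes are known targets of activator E2Fs, and neither showed a gap between the groups beyond the spread of its replicates. *E2f8* overlaps *Gm2788* on the opposite strand.

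The 3 pocket protein genes did not move as a group. *Rb1* (ENSMUSG00000022105, chromosome 14, 73183673 to 73325822, minus strand), which encodes the retinoblastoma protein that binds the activators, had 217 and 256 normalized reads in high and 262 and 196 in low MMP cells. Its difference was negative between the libraries numbered 1 (-0.27) and positive between those numbered 2 (0.39), for a mean of 0.06 (SE 0.19, 95% interval -0.47 to 0.58, adjusted limma p 0.979). This interval is the widest of the 10 genes and leaves the direction unknown.

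*Rbl1* (ENSMUSG00000027641, chromosome 2, 157145893 to 157204534, minus strand), which encodes p107 and is an E2F target itself, had 1380 and 1577 normalized reads in high and 1381 and 1285 in low MMP cells. High MMP 2 was above the other 3 libraries and high MMP 1 was level with low MMP 1, and the log2 difference was 0.15 (SE 0.10, 95% interval -0.13 to 0.43, adjusted limma p 0.753). *Rbl2* (ENSMUSG00000031666, chromosome 8, 91070057 to 91123844, plus strand), which encodes p130, the pocket protein of resting cells, had 412 and 361 in high and 448 and 461 in low MMP cells. Its groups did not overlap, with a log2 difference of -0.24 (SE 0.11, 95% interval -0.53 to 0.06), an unadjusted limma p of 0.0884 and an adjusted p of 0.600. All 3 genes overlap annotated genes on the opposite strand.

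**Figure D2:**
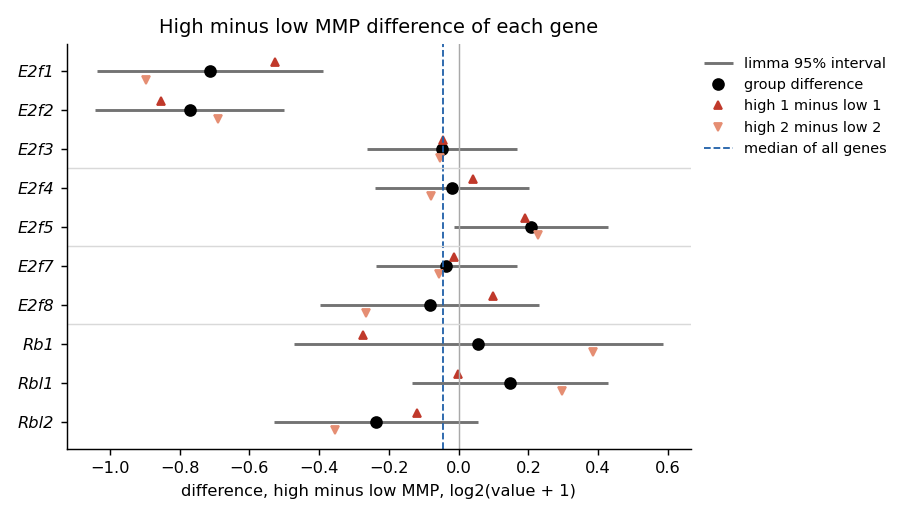
High minus low MMP difference of each gene on the log2(value + 1) scale, with the group difference and its limma 95% interval, the differences between same-numbered libraries as triangles and the median of all genes (-0.04) as a dashed line. The intervals of *E2f1* (-1.04 to -0.39) and *E2f2* (-1.04 to -0.50) lie below 0. The triangles of *E2f4*, *E2f8* and *Rb1* lie on both sides of 0, as do, barely, those of *Rbl1* (-0.001 and 0.296).

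As a family, 0 of the 10 genes had an adjusted limma p under 0.05, as for all genes (0%, with 9.96% at an unadjusted p under 0.05). At an unadjusted p under 0.05, 2 of the 10 were lower in high MMP cells, where 6.01% of all genes were, and 0 were higher, where 3.95% were. The groups did not overlap for 4 of the 10 genes, 3 lower and 1 higher, a share close to that over all genes (37.9% in either direction, 24.5% lower and 13.5% higher). The median difference of the 10 genes was -0.04, equal to that of all genes, with 7 differences below 0 and 3 above. Those of *E2f1* and *E2f2* were the farthest from 0, followed by *Rbl2*. With 2 libraries against 2, an exact permutation test of a single gene cannot give a two-sided p below 0.333.

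To compare levels between genes, normalized reads were divided by the length of all annotated exons in kilobases (kb). *E2f4* was the most abundant E2F transcript in every library, at 1154 ± 58.5 reads per kb in high MMP against 1169 ± 10.7 in low MMP (SD, n = 2 each), followed by *E2f8* at 524 to 630. Next came *E2f1*, *E2f5*, *E2f3* and *Rbl1*, which overlapped with ranges of 205 to 382, 251 to 294, 244 to 265 and 214 to 263 reads per kb. *E2f7* was at 138 to 145, *E2f2* at 54.9 to 99.5, *Rbl2* at 47.7 to 61.0 and *Rb1* at 32.5 to 43.6.

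The order within the middle of this range differed between the sorted groups. *E2f1* was above *E2f5* and *E2f3* per kb in both low MMP libraries and below both genes in the high MMP libraries. The ratio of *E2f1* to *E2f3* per kb was 0.991 and 0.802 in high MMP cells and 1.39 and 1.44 in low MMP cells. *E2f2* stood above *Rbl2* by a wide margin in low MMP cells (99.5 and 90.5 against 59.3 and 61.0) but by a narrow one in high MMP cells (54.9 and 56.1 against 54.5 and 47.7).

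Setting activators against repressors, *E2f1*, *E2f2* and *E2f3* together made up 19.7% and 20.0% of E2F reads per kb in high MMP cells and 25.0% and 25.1% in low MMP cells. Here E2F reads per kb are those summed over the E2F members, which leave out *E2f6*. The replicates of a group were much closer to each other than to the other group (SD 0.234 and 0.104 percentage points, n = 2 each). The activator sum was 529 ± 17.2 reads per kb in high MMP against 719 ± 26.8 in low MMP cells, whereas the sum of *E2f4*, *E2f5*, *E2f7* and *E2f8* was 2141 ± 101 and 2153 ± 68.3 (SD, n = 2 each). The share of the pocket-bound repressors was 54.0% and 54.4% in high and 50.5% and 48.6% in low MMP cells, and that of the atypical repressors overlapped at 25.6% to 26.4% and 24.5% to 26.3%. Within the activators, *E2f1* alone went from 12.4% and 13.0% of E2F reads per kb in low to 8.79% and 7.93% in high MMP cells, while *E2f3* stayed between 8.87% and 9.89%. These shares are a description of the values above and were not tested.

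**Figure D3:**
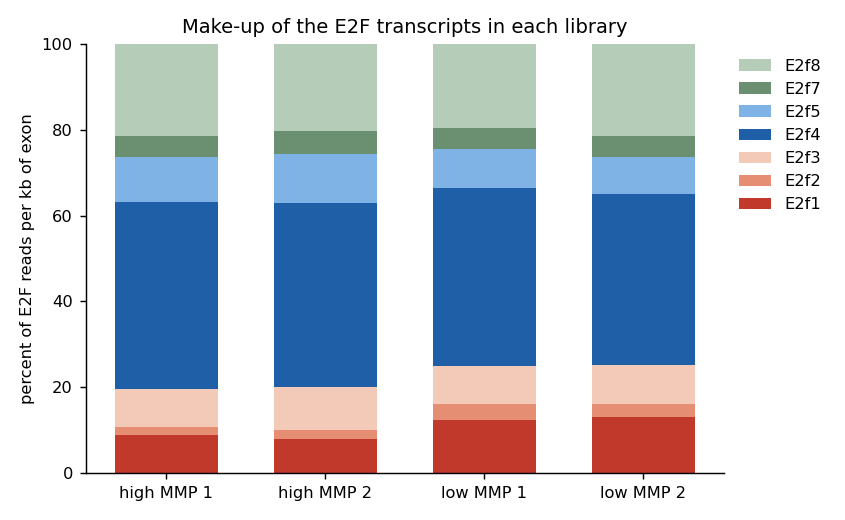
Share of each E2F member in the normalized reads per kb of exon summed over these members (*E2f6* left out), in percent, for each library as a stacked bar. The red activator segments sum to 19.7% and 20.0% in high MMP and 25.0% and 25.1% in low MMP cells, with *E2f4* (dark blue) taking 40.0% to 43.4% throughout.

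Genes with the profile most like that of *E2f1* over the 4 libraries were found by the root-mean-square distance between log2(value + 1) profiles, each centred on its own mean, among the 9999 genes whose mean reached 100. The nearest was *Orc1* at a distance of 0.02, which encodes the largest subunit of the origin recognition complex, followed by *Dtl* at 0.04, a substrate receptor that marks the licensing factor Cdt1 for destruction, and *Rpa2* at 0.05, a subunit of the single-strand DNA binding protein. *Orc1* had 715 and 632 normalized reads in high and 1055 and 1164 in low MMP cells, almost the same numbers as *E2f1*. *E2f2* ranked 66 in this list, at a distance of 0.14, ahead of the other members. *Rbl2* came next of the members at rank 435, and the remaining 7 ranked between 1989 and 8859. With 4 libraries such likeness is a description only.

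The promoter windows of *Orc1* and *Dtl* held the 8-letter E2F form (2.26% of all windows). That of *Rpa2* held the 7-letter form TTCCCGC (7-letter forms, 9.57% of all windows). The sites are given because these genes follow *E2f1* most closely, and the matches of *Orc1* and *Rpa2* read on the opposite strand.
Orc1 (chr4:108579417-108579446, plus strand, from 27 bases before the start): tcggttagtgGCGCGAAAagttttctcctg
Dtl (chr1:191575533-191575562, minus strand, from 8 bases before the start): gtgacgtcagTTTGGCGCggagtttggcgg
Rpa2 (chr4:132768313-132768342, plus strand, from 37 bases before the start): ctgtcccttcGCGGGAAggagtttgtggcg
The nearest genes of *E2f7* were *Ddx5*, *Mier3* and *Pik3r1*, all at 0.01, and those of *E2f8* were *Bok*, *Dennd6a* and *Mis12*, at 0.01 each. *Rbl1* was nearest to *Sinhcaf*, *Gfod1* and *Sh3rf1*, also at 0.01. The largest value was 1.05, 1.20 and 1.23 times the smallest for *E2f7*, *E2f8* and *Rbl1*, against 1.86 for *E2f1*. Of the members, *E2f3* was nearest to *E2f7*, at 0.02 and rank 66, followed by *E2f4* at 0.04 and rank 628. From *E2f8*, *E2f4* was at 0.07 and rank 1039. *E2f5* was at 0.08 from *Rbl1* at rank 846, so short distances are common for these profiles.

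**Figure D4:**
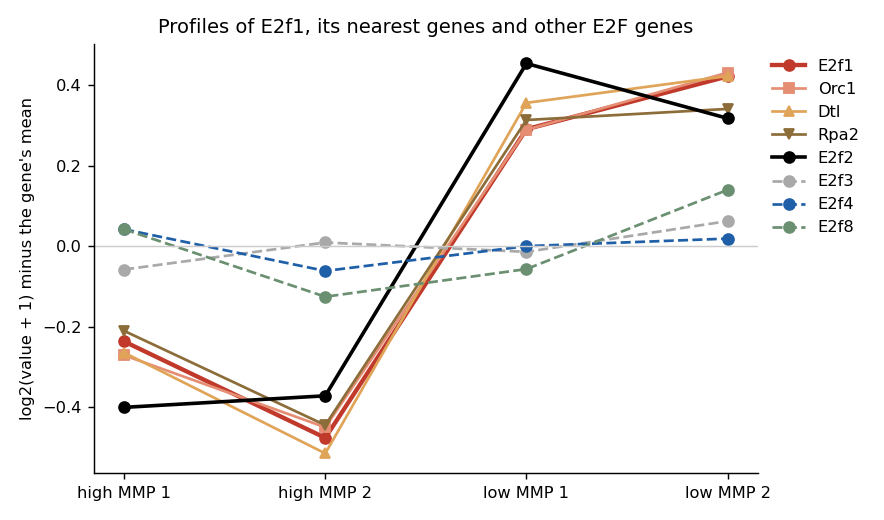
log2(value + 1) of each gene minus its own mean in the 4 libraries, where lines only join the points of a gene. *E2f1*, *Orc1*, *Dtl* and *Rpa2* run together, low in both high MMP libraries and lowest in high MMP 2, *E2f2* is low in both as well, and *E2f3*, *E2f4* and *E2f8* (dashed) stay near 0.

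The DNA-binding partners of the E2Fs differed little. *Tfdp1*, which encodes the main dimer partner DP1, had 5439 and 5055 normalized reads in high and 5190 and 5466 in low MMP cells, a log2 difference of -0.02 (SE 0.09). *Tfdp2* differed by -0.08 (SE 0.11). *E2f6*, a repressor that acts with Polycomb proteins and binds no pocket protein, had 518 and 551 in high and 579 and 608 in low MMP cells and differed by -0.15 (SE 0.09, adjusted limma p 0.690) with groups that did not overlap.

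Of the 8 cyclin and kinase genes that inactivate pocket proteins, 0 passed in limma, and 2 had an unadjusted p under 0.05, both lower in high MMP cells (6.01% of all genes). These were *Ccne2*, which encodes cyclin E2, at a log2 difference of -0.91 (SE 0.10), and its kinase partner *Cdk2* at -0.51 (SE 0.10). *Ccne2* had 550 and 493 normalized reads in high and 948 and 1009 in low MMP cells, and DESeq2 called it (adjusted p 0.000204). *Ccne1* differed by -0.33 (SE 0.17). The list did not move as a whole, with a median difference of -0.06. Without overlap, 3 of its 8 genes were lower (24.5% of all genes) and 2 were higher (13.5% of all genes) in high MMP cells.

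Of 7 inhibitors of these kinases, 5 were measured, 0 passed in limma and 2 had an unadjusted p under 0.05, both higher in high MMP cells (3.95% of all genes). *Cdkn2d*, which encodes the cyclin D kinase inhibitor p19-INK4d, had 389 and 362 normalized reads in high and 199 and 226 in low MMP cells, a log2 difference of 0.82 (SE 0.12), and DESeq2 called it (adjusted p 0.00916). *Cdkn2c*, which encodes p18-INK4c, had 2201 and 2110 against 1526 and 1541, a difference of 0.49 (SE 0.07, DESeq2 adjusted p 0.0399). *Cdkn1b*, which encodes p27, differed by 0.14 (SE 0.07).

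The complexes that carry pocket proteins were level. The MuvB core joins E2F4 and p130 or p107 in the DREAM repressor of resting cells, and of its 4 measured genes (of 5) none had an unadjusted p under 0.05. *Lin9* differed by 0.08 (SE 0.08), *Lin52* by -0.15 (SE 0.16) and *Rbbp4* by 0.01 (SE 0.13). Of the 12 corepressor genes, histone deacetylases, Sin3 proteins and chromatin enzymes recruited by pocket proteins, 0 had an unadjusted p under 0.05 and the differences ran from -0.20 to 0.10. Those of smallest p were *Arid4b* at -0.20 (SE 0.10), *Arid4a* at -0.17 (SE 0.12) and *Kdm5a* at -0.13 (SE 0.14).

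Targets of E2F in G1/S and S phase were mostly lower in high MMP cells. This list, like the others here, was compiled with earlier results of these data known, so its counts beside all genes are a description. It was put together by hand from well known targets and leaves out the members themselves, and all 54 genes were measured. In limma 0 passed, while 30 had an unadjusted p under 0.05 and were lower (6.01% of all genes) and 1, *Ccna2*, was higher (3.95% of all genes). The median difference was -0.42 against -0.04 for all genes, 50 of 54 differences were below 0, and 42 of 54 genes had groups that did not overlap in that direction (24.5% of all genes). DESeq2 called 8 of the 54 as lower (0.309% of the genes to which it gave an adjusted p). Without high MMP 1 the median was -0.50, and without high MMP 2 it was -0.29.

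By the smallest p, the named targets were *Msh6*, *Cdt1*, *Cdca7*, *Cdc6*, *Orc1*, *Ung*, *Clspn* and *Rpa2*, with unadjusted limma p from 0.000594 to 0.00318 and an adjusted p of 0.472 for each. *Cdt1*, which loads the replicative helicase, had 2429 and 2142 normalized reads in high and 3932 and 3927 in low MMP cells, a log2 difference of -0.78 (SE 0.10). *Cdca7*, a cofactor of the chromatin remodeler Hells, had 1715 and 1770 against 2652 and 2592, a difference of -0.59 (SE 0.07). The differences of both were close to those of *E2f1* and *E2f2* in size.

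Beyond these, *Cdc6* at -1.43 (SE 0.19) and *Ung* at -1.90 (SE 0.31) differed by more than *E2f1* and *E2f2*, and DESeq2 called both. *Msh6*, a mismatch repair gene, differed by -0.69 (SE 0.07), *Clspn*, a checkpoint adaptor at the fork, by -0.56 (SE 0.09) and *Rpa2* by -0.65 (SE 0.11). The 4 targets with a difference above 0 were *Fbxo5* (0.41, SE 0.16), *Ccna2* (0.32, SE 0.09), *Asf1b* (0.16, SE 0.12) and *Tyms* (0.06, SE 0.15), named after their values were seen. *Ccna2*, which encodes cyclin A2, and *Fbxo5*, which encodes the inhibitor Emi1 of the anaphase-promoting complex, act beyond S phase as well.

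E2F letters and the size of these differences could be set side by side for the 42 targets with a promoter window. The 20 with an 8-letter match had a median difference of -0.44, and 18 of them had high MMP values below all low MMP values. The 22 without an 8-letter match had a median of -0.31, with 15 such genes. Some of these, *Rpa2* among them, did hold a 7-letter form. By the 7-letter forms, the 30 targets with a match had a median of -0.44, with 26 such genes. The 12 without had a median of -0.29, with 7 such genes. Examples of matched windows are those of *Cdc6* and *Cdt1*, the licensing genes named above. In *Cdc6* the match reads on the opposite strand.
Cdc6 (chr11:98908003-98908032, plus strand, from 138 bases before the start): ccggtggagaGCGGGAAAtcgcctggggtc
Cdt1 (chr8:122568035-122568064, plus strand, from 33 bases after the start): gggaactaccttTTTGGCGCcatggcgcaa
Among genes whose mean reached 100, 22.7% were lower in high MMP cells without overlap. Of those with a window, the 422 with an 8-letter match had a median of -0.06, and 32.7% were lower without overlap. Of the 7454 without a match, the median was -0.02 and 22.4% were lower without overlap.

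G2/M genes that the MuvB complexes bind ran opposite to *E2f1* and *E2f2*. All 30 were measured, 0 passed in limma, and 19 had an unadjusted p under 0.05 and were higher in high MMP cells (3.95% of all genes). The median difference was 0.34, 28 of 30 were above 0, and DESeq2 called 14, all as higher (0.676% of the genes to which it gave an adjusted p). *Nusap1* (1.22, SE 0.08), *Ube2c* (1.30, SE 0.09) and *Aurka* (0.98, SE 0.08), genes of the mitotic spindle and of anaphase, had the smallest p. Sorted cells were not scored for cell cycle phase in these data, and the part of phase in the *E2f1* and *E2f2* values was not tested. The letters TTTGAA of the CHR element, through which MuvB complexes bind, stood in the windows of 76.0% of the 25 G2/M genes with a window and of 20.2% of all genes with one. Of the members, *E2f2* (at an internal start), *E2f3*, *E2f8* and *Rbl2* held them.

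Targets through which E2F1 can promote cell death were also examined, since *E2f1* is the member tied most closely to apoptosis. Of 9 listed, 7 were measured, 0 passed in limma and 1 had an unadjusted p under 0.05, as a lower value in high MMP cells (6.01% of all genes). That gene was *Bcl2l11*, which encodes the BH3-only protein Bim, with 1357 and 1116 normalized reads in high and 1598 and 1821 in low MMP cells, differing by -0.47 (SE 0.14, adjusted limma p 0.472). *Bbc3*, which encodes Puma, differed by -0.34 (SE 0.14), and *Hrk* by -0.58 (SE 0.32) on 15 to 26 reads. The median of the list was -0.17.

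**Figure D5:**
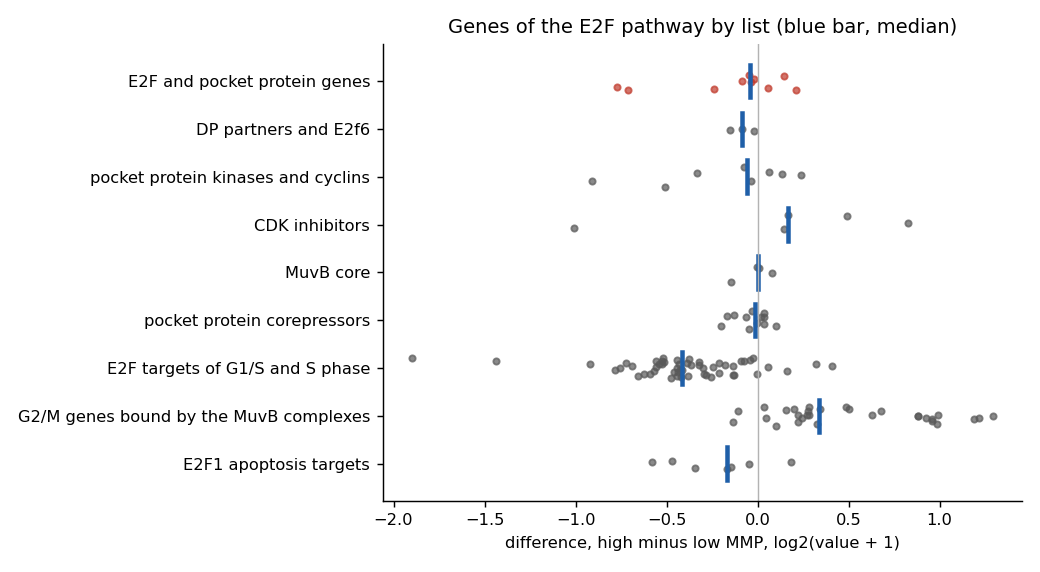
High minus low MMP differences on the log2(value + 1) scale, each point a gene and each blue bar the median of a list, with vertical scatter only to separate points. The E2F targets of G1/S and S phase lie mostly below 0 (median -0.42) and the G2/M genes mostly above 0 (median 0.34), while MuvB core and corepressor genes stay near 0.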

How the data were processed

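RNA sequencing values of 4 samples, 2 per group by the sample titles, were analysed. The authors aligned reads to the mouse transcriptome (GRCm38) with STAR and counted them per gene, and their processing notes also name HTSeq. Versions, annotation release and the treatment of reads matching several genes or strands are not given in the sources used here. The deposited signal is the reads of a gene after scaling each library to a total of 20000000, for genes above 0 in at least 2 samples. All values (100%, to within 0.01 reads) were whole multiples of what 1 read is worth, which returned whole reads and the depth of each library. There were 0 columns of other samples. Symbols, positions and exon lengths came from GENCODE M21 on GRCm38 (19993 of 20197 identifiers matched).

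The test was limma 3.58.1 (trend) in R 4.3.3 on log2(value + 1), with Benjamini-Hochberg adjustment over all genes and a threshold of 0.05. This scale understates changes of low genes. edgeR 4.0.16 and DESeq2 1.42.0 on recovered reads, a replicate block, other scalings, filters, pseudocounts and leaving out each library were the alternatives. Scripts were tested on simulated data. The members and lists were chosen with earlier results of these data known. Genes named are the members, *Tfdp1*, *Tfdp2*, *E2f6*, the 8 E2F targets and the 3 genes of each other list with the smallest p, and the 3 nearest profiles to *E2f1*, *E2f7*, *E2f8* and *Rbl1*. The 4 E2F targets with a difference above 0 were named after their values were seen.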

Additional observations from a re-analysis of the deposited data

How the results depend on the processing

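Over the 18 alternatives, *E2f1* (-0.83 to -0.59), *E2f2* (-0.84 to -0.70), *E2f3*, *E2f5*, *Rbl1* and *Rbl2* kept their direction. Limma called 0 genes in each of its variants. The calls came from the count models: DESeq2 called 118 genes, 2 members and 8 E2F targets, and edgeR with the replicate block 106, 1 (*E2f2*) and 5. The replicate block in limma called 0 of each. The cause was not tested. Same-numbered samples did not deviate together (r = -0.42 across 12902 genes with a mean of at least 10), so the numbers were not taken as pairs. With the pairing crossed, a fit chosen after seeing the data, edgeR called 733 of 20197 genes, 2 members and 29 E2F targets, and limma 0. Leaving out any 1 library gave 0 for all 3 counts, with the lone sample of a group assumed to vary like the others.

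Differences near 0 turned sign. *E2f4* became 0.022 with median-of-ratios scaling, 0.018 with TMM scaling, 0.019 in edgeR, 0.018 in edgeR with either block and 0.023 in DESeq2, and ran from -0.071 to 0.032 with 1 library left out. *E2f7* became 0.0063, 0.0023, 0.0021, 0.0023, 0.0022 and 0.0061 in these. With 1 library left out, *E2f8* ran from -0.18 to 0.015 and *Rb1* from -0.15 to 0.27. The scalings moved the median of all genes by less than 0.05. Depth limited little, as each member had at least 221 reads in every library.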
